A study of Mus musculus with 18 samples.

Results

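The regions described here are the 2497 stretches of mouse chromosome 6 that were marked by nuclear factor I proteins during the formation of a cerebellar tumor, of 41987 such stretches on the 19 autosomes (5.95%). They were chosen by their scores: the 30000 summits with the highest score on chromosomes 1 to 19 were taken from each of 18 libraries, with ties in score ordered by chromosome and start. Each summit was widened by 100 bp on each side, overlapping summits were merged, and a stretch was kept where at least 3 libraries had a summit in it. The 39490 regions of the other 18 autosomes, made in the same way, served for comparison. On chromosome 6, 345 of the regions had summits from exactly 3 libraries, and 586 further stretches with summits from 2 libraries fell just outside the rule.

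Nuclear factor I proteins bind DNA as dimers that recognise the palindrome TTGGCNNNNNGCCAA, and a single arm of it, TTGGC or GCCAA, is bound more weakly. NFIA and NFIB are members of this family that act in the developing cerebellum, where they take part in the maturation of granule neurons. Granule neuron progenitors (GNPs) divide in the outer layer of the cerebellum after birth, and medulloblastoma is a tumor that can arise from them.

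Binding was mapped by CUT&Tag: a transposase tethered by an antibody to a bound protein cuts the DNA nearby, and the fragments are sequenced. The 3 stages were GNPs (postnatal day 7), hyperplasia (postnatal day 28) and tumors (adults), all from cerebellum by Percoll gradient, and 100000 cells went into a library. There were 3 preparations of each stage, every one of them with an NFIA and an NFIB library. The labels used here name no strain, allele, driver of the tumors or pooling of animals, so stage and age change together, and nothing says that the preparations of a stage came from separate animals. P-values therefore measure only the spread between these preparations. In bulk chromatin a change in the mixture of cells and a change within cells cannot be told apart. All 18 libraries target NFIA or NFIB, so none measures how much chromosome 6 DNA a preparation held. A change in that amount and a change in binding cannot be told apart either, and this was not tested. The tumor preparations also carry other title dates than the GNP and hyperplasia preparations, so that tumor and title date cannot be told apart. Preparations 1 and 2 of GNPs and of hyperplasia share 1 title date, and the remaining ones share another.

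The deposited lists held between 49166 and 374375 autosomal summits per library, and depth is unknown. The score is the −log10 p-value or q-value that the authors' peak caller gave, so scores were compared only as ranks. Of the 18 libraries, the NFIA library of the second hyperplasia preparation stood apart: 20.4% of its top summits shared the score of the last summit kept. Ordering those ties by chromosome favours low chromosome numbers, and the share of its top summits on chromosome 6 was 7.01% by the rule and 5.57% with ties broken at random. It hit 40.3% of the chromosome 6 regions and 40.7% of those of other autosomes. Counts and averages that compare hyperplasia with another stage are given with it and, where they were computed, also without it. For 6 libraries the title and the deposited name disagree on the target, and the title was followed.

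Sequences are shown for start sites at which the results turn: the 3 promoters with a region hit in every library at the best ranks, 1 lost after the GNP stage, 1 gained in tumors, and those of the granule progenitor factor Atoh1 and the Sonic hedgehog receptor component Smo. Each run is the 250 bases before the start site, read 5′ to 3′ on the strand of the gene, from RefSeq on GRCm38.p6 (the same build as mm10). Capitals mark the arms TTGGC and GCCAA, searched on both strands with overlaps counted. Cttnbp2 was chosen after its values were seen. Pdia4 (protein disulfide isomerase, chr6:47813513-47813762, minus strand), Rmnd5a (a ubiquitin ligase subunit, chr6:71440638-71440887, minus strand) and Mat2a (which makes S-adenosylmethionine, chr6:72439557-72439806, minus strand) were hit in 18 of 18 libraries. Skap2 (an adaptor of Src family kinases, chr6:52012550-52012799, minus strand) was hit in 6 GNP libraries and no other. Cttnbp2 (a cortactin-binding protein of neurons, chr6:18514870-18515119, minus strand) was hit in 5 tumor libraries and no other. Smo (chr6:29735247-29735496, plus strand) was hit in 3, 6 and 6 libraries of GNPs, hyperplasia and tumors, and Atoh1 (chr6:64728875-64729124, plus strand) in 3, 5 and 6.
Pdia4: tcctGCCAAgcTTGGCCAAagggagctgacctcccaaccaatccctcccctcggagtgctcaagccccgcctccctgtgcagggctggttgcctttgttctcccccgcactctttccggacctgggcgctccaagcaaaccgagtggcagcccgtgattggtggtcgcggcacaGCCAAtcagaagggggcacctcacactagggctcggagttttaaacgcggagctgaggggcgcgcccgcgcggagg
Rmnd5a: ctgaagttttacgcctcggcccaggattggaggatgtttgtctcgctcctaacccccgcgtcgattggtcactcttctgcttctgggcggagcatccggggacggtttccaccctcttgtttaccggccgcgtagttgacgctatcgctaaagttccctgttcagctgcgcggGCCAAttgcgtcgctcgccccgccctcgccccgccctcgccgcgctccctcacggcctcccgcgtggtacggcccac
Mat2a: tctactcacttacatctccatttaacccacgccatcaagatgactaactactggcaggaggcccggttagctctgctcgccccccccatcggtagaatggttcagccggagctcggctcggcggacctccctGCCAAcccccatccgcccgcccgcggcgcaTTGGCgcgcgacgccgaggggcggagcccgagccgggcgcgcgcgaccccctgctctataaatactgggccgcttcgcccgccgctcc
Skap2: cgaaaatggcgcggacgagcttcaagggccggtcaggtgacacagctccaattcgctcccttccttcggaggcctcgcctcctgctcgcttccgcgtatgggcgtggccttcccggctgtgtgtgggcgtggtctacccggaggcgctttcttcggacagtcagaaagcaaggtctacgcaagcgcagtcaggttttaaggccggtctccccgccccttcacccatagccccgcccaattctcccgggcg
Cttnbp2: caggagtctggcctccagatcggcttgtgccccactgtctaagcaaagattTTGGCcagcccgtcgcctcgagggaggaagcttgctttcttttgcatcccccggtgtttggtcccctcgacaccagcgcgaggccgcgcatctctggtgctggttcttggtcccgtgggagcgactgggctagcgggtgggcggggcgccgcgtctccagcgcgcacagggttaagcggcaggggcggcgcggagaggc
Smo: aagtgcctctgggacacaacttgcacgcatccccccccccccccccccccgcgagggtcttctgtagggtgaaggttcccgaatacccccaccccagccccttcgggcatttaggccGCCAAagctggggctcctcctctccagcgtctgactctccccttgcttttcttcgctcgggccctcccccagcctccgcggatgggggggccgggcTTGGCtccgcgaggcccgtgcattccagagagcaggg
Atoh1: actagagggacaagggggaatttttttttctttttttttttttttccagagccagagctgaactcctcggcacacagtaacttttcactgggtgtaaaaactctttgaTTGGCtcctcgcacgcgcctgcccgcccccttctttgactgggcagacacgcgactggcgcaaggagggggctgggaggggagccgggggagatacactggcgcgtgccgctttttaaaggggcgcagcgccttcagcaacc

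The Pdia4 run holds 4 arms, among them a pair that overlaps, Mat2a and Smo hold 2 each, and Rmnd5a, Cttnbp2 and Atoh1 hold 1 each. The Skap2 run holds 0. RefSeq promoter windows (300 bases, 250 before to 50 after the start) were given for 952 of the 1126 protein-coding genes of chromosome 6. An arm was present in 47.3% of the 1164 windows of chromosome 6 and in 48.0% of the 20084 windows of all autosomes. Where a chromosome 6 window overlapped a region hit in all 18 libraries, 58.5% of 135 held an arm, compared with 44.1% of the 701 windows with no region. The same shares on the other autosomes were 62.0% and 43.4%. The whole palindrome was found in 7 of the 20084 windows, 1 of them on chromosome 6. These matches are descriptions of letters and not of bound sites.

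The regions of chromosome 6 were like those of the other autosomes in width and recurrence. Their median width was 462 bp (465 bp elsewhere), and 84.6% of the chromosome's top summits lay in them. A chromosome 6 region was hit by a median of 9 of 18 libraries, compared with 10 elsewhere, and 347 (13.9%) were hit by all 18, compared with 5777 (14.6%). Of the 2497 regions, 507 (20.3%) lay within 1 kb of an end of a protein-coding gene, 1114 (44.6%) lay further inside a gene and 876 (35.1%) lay between genes. On the other autosomes these shares were 22.8%, 41.9% and 35.3%. The regions hit in all 18 libraries lay near gene ends more often, with 35.4% on chromosome 6 and 34.1% elsewhere.

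Along the chromosome, regions ran from 3454461 to 149566138 and were unevenly spread. The 3 densest 1 Mb windows were 91 to 92 Mb, around the taurine transporter gene Slc6a6 and the histone deacetylase gene Hdac11, with 52 regions, 88 to 89 Mb, around Mgll and Ruvbl1, with 50, and 100 to 101 Mb, around Rybp and Shq1, with 49. The longest stretch without a region was 3.44 Mb, from 67267127 to 70709825. The next were 2.04 Mb holding the Reg genes, which are made mainly in gut and pancreas, and 1.90 Mb holding natural killer receptor genes such as Klrd1 and Klrk1. No region lay in the Hoxa cluster, between 52155367 and 52318389, which patterns the trunk and limbs.

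The following 5 regions were hit in all 18 libraries with the best worst rank, where rank 1 is the highest score of a library. The region at the start of Rmnd5a (chr6:71440614-71440956) ranked 17 to 225 over all 18 libraries. At Pdia4 (chr6:47813338-47813700) the median rank was 231.5 in GNPs, 108.5 in hyperplasia and 58 in tumors. At Mat2a (chr6:72439652-72439946) it was 197.5, 194 and 27, and the tumor ranks of 17 to 84 did not overlap the GNP ranks of 151 to 311. The region 9810 bp from Rybp, a Polycomb complex subunit (chr6:100218627-100218883), had median ranks of 45.5, 76.5 and 54.5. A region with no gene within 100 kb (chr6:111866137-111866476) had median ranks of 85, 123.5 and 85.5. As these 5 were picked by their ranks, their high scores at every stage follow from the choice.

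The share of top summits on chromosome 6 was higher in all 6 tumor libraries than in any library of the other stages when ties were broken at random. The chromosome was chosen with this difference known, so it is described without a test. With ties at random, the 6 GNP libraries had a lowest, median and highest share of 5.04%, 5.29% and 5.33%. The 6 hyperplasia libraries had 5.30%, 5.37% and 5.57%, and the 6 tumor libraries 6.84%, 6.95% and 7.43%. Tumor libraries did not overlap with the others, whereas GNP and hyperplasia libraries did. Over preparations, the share was 5.25% ± 0.0789 in GNPs, 5.39% ± 0.0885 in hyperplasia and 7.07% ± 0.155 in tumors (SD, n = 3), a tumor to GNP ratio of 1.35. The other 18 autosomes had ratios from 0.916 (chromosome 19) to 1.02 (chromosome 3). By the rule's order of ties, the shares were 5.32% ± 0.0638, 5.63% ± 0.502 and 7.11% ± 0.175, and the NFIA library of the second hyperplasia preparation, at 7.01%, then lay within the tumor range. The tumor to hyperplasia ratio was 1.263 by the rule, 1.325 without that library and 1.312 with ties at random.

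**Figure D1:**
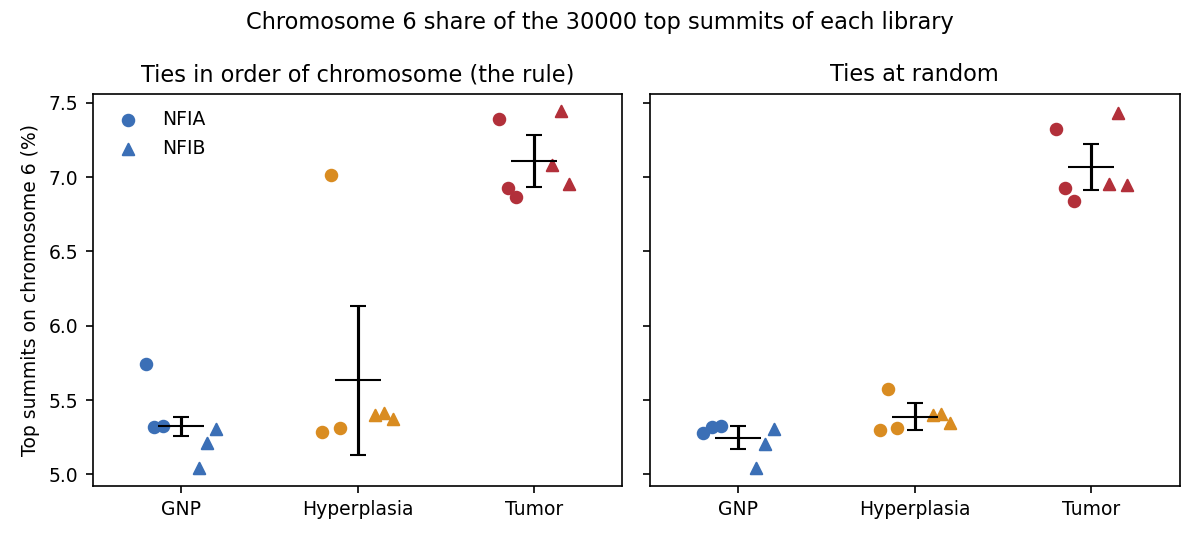
Percent of the 30000 top summits of each library that lie on chromosome 6, by stage, with ties in score ordered by chromosome (left) and broken at random (right); circles are NFIA and triangles NFIB libraries, bars the mean and SD of 3 preparations. Tumor libraries sit between 6.84% and 7.43% on the right, above all others, and 1 hyperplasia library moves from 7.01% to 5.57% between the panels.

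The difference ran along the whole chromosome. In each of the 15 bins of 10 Mb, all 3 tumor preparations had more top summits than all 3 GNP preparations (15 of 15 bins, where 15.4% of all 253 autosomal bins met this criterion). The comparison uses the same contrast by which the chromosome was chosen, and nothing is read from that percentage. The tumor to GNP ratio was lowest at 70 to 80 Mb, where GNP preparations had 163, 161 and 179 top summits and tumor preparations 189, 199 and 207 (ratio 1.18). It was highest at 0 to 10 Mb, with 86, 73 and 89 in GNPs and 144, 144 and 127 in tumors (ratio 1.67). At 60 to 70 Mb, which holds Atoh1, GNPs had 68, 64 and 63 and tumors 110, 111 and 98 (ratio 1.64). The median ratio was 1.32 over the 15 bins, compared with 0.984 over the 238 bins of other autosomes, which ranged from 0.587 to 1.37. For hyperplasia against GNP with ties at random, the ratios of the bins ran from 0.963 to 1.23 with a median of 1.03.

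**Figure D2:**
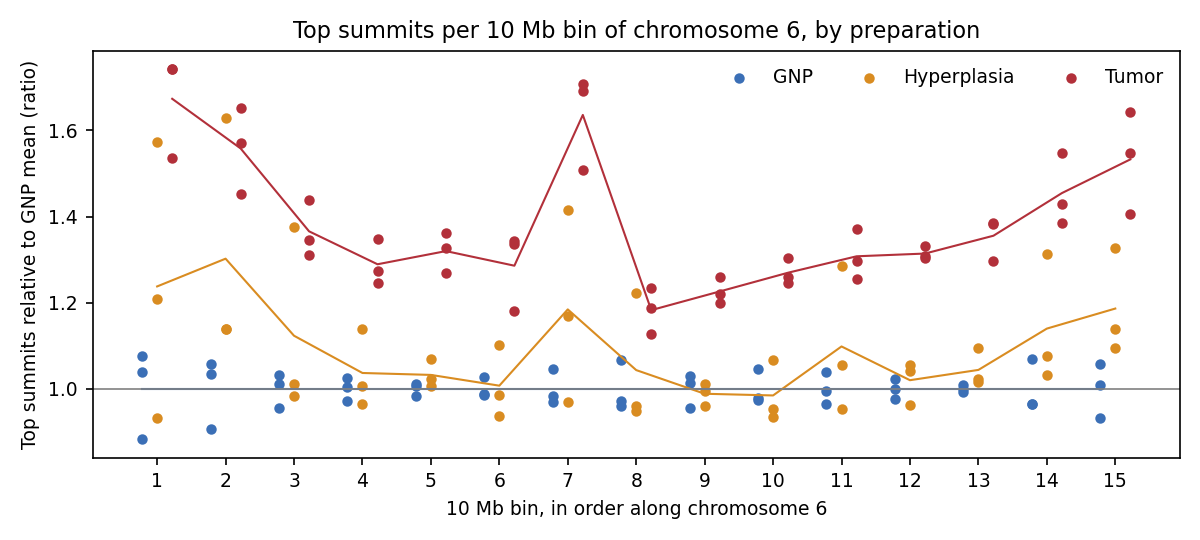
Top summits per 10 Mb bin of chromosome 6, in order along the chromosome, divided by the mean of the 3 GNP preparations; points are preparations (2 libraries summed, ties by the rule) and lines stage means. In all 15 bins the tumor points lie above the GNP points, from a mean ratio of 1.18 in bin 8 to 1.67 in bin 1, and the highest hyperplasia point in each of the 15 bins is the second preparation.

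At finer scale, 137 windows of 1 Mb on chromosome 6 were among the 2200 tested with limma on log2(top summits + 0.5). Tumors were above GNPs in 127 of the 137, with a median log2 difference of 0.44, compared with −0.02 over the 2063 windows of other autosomes. In this fit 36 chromosome 6 windows were called higher (adjusted p under 0.05, Benjamini-Hochberg over all windows) and 0 lower, where 2.55% of all windows were called higher and 1.82% lower; as the contrast chose the chromosome, the calls are description. The number of calls rests on each preparation: it was 8, 7 and 9 without GNP preparation 1, 2 or 3 and 2, 1 and 13 without tumor preparation 1, 2 or 3, whereas the median log2 difference stayed between 0.44 and 0.47. For tumors against hyperplasia, 6 windows were called higher and 0 lower (0.273% and 0.182% of all windows), with a median of 0.35. With ties at random 19 were called, and 18 without the NFIA library of the second hyperplasia preparation. The count was 1 without hyperplasia preparation 3 or tumor preparation 2, and 2 without any 1 of the GNP preparations or of tumor preparations 1 and 3. For hyperplasia against GNPs, limma called 0 windows on chromosome 6 and 0% of all windows; at an unadjusted p under 0.05 there were 18 higher and 5 lower on the chromosome (16.8% of its windows), beside 15.5% of all windows.

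The windows with the largest called differences between tumors and GNPs held few summits in GNPs. Each call was run again under 20 alternatives, most of which leave out 1 preparation or use 1 target. At 15 to 16 Mb, which holds Foxp2, a transcription factor of neurons, the GNP preparations had 7, 4 and 3 top summits, hyperplasia 8, 13 and 10 and tumors 16, 18 and 15 (log2 difference of tumors from GNPs 1.77, SE 0.288). At 6 to 7 Mb, around the dynein chain gene Dync1i1 and the homeobox gene Dlx6, they had 9, 6 and 13, then 12, 18 and 16, then 27, 30 and 24 (1.54, SE 0.248). Neither window had overlap between GNPs and tumors, and their calls were lost under 3 and 4 alternatives. At 12 to 13 Mb (Thsd7a) tumors averaged 11.7 ± 3.21 and GNPs 4.33 ± 1.15 (SD, n = 3), and hyperplasia, at 11.7 ± 3.06, was as high as tumors. At 98 to 99 Mb, around the transcription factor genes Foxp1 and Mitf, tumors averaged 19 ± 1.73 and GNPs 8.67 ± 0.577. The calls of these 2 windows were lost under 9 alternatives each. Of the windows called between tumors and hyperplasia, 128 to 129 Mb, around the tetraspanin gene Tspan9 and the transcription factor gene Tead4, had 42, 42 and 37 in GNPs, 41, 44 and 39 in hyperplasia and 65, 70 and 65 in tumors. At 40 to 41 Mb (Tmem178b) values were 28, 25 and 26, then 23, 25 and 24, then 39, 44 and 38. In both windows GNPs and hyperplasia overlapped and tumors stood above them, and the calls were lost under 4 and 5 alternatives. The others among the 5 largest, at 89 to 90 Mb (the semaphorin receptor gene Plxna1), 120 to 121 Mb (Bcl2l13, of the mitochondrial outer membrane) and 55 to 56 Mb (the PACAP receptor gene Adcyap1r1), had log2 differences of 0.72, 0.54 and 0.47, and their calls were lost under 14, 14 and 15 of the 20 alternatives.

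Regions were called gained where at least 5 of the 6 libraries of the later stage and at most 1 of the 6 of the earlier stage hit them, and lost in the reverse case. Between GNPs and hyperplasia, 50 chromosome 6 regions were gained and 47 lost (2.0% and 1.88%), where 2.16% and 2.77% of all regions were. Between GNPs and tumors, 139 were gained and 25 lost (5.57% and 1.00%), beside 2.28% and 2.54% of all regions. Between hyperplasia and tumors, 77 were gained and 9 lost (3.08% and 0.360%), beside 1.21% and 1.08%. The tumor contrasts chose the chromosome, so nothing is read from these backgrounds. Among the other autosomes, the share gained between GNPs and tumors was 2.69% at most (chromosome 17). Without the NFIA library of the second hyperplasia preparation, 81 regions were gained between GNPs and hyperplasia (3.31% of chromosome 6 regions and 3.71% of the others) and 60 lost (2.45% and 3.21%). Between hyperplasia and tumors, 93 were then gained (3.80% and 1.30%) and 17 lost (0.694% and 2.35%). Leaving out 1 preparation of either stage compared loosens the criterion, and the numbers between GNPs and tumors were then 190 to 267 gained and 47 to 54 lost. Which regions are called depends on the length of the lists. With 15000 top summits per library, 24 of the 139 gained and 3 of the 25 lost regions between GNPs and tumors were called again, as were 11 of the 50 and 5 of the 47 between GNPs and hyperplasia, and 6 of the 77 and 0 of the 9 between hyperplasia and tumors. The regions named in the following paragraphs are therefore examples from lists of 30000. On average a chromosome 6 region was hit by 0.722 more tumor than GNP libraries, while the averages of the other autosomes ran from −0.306 (chromosome 19) to −0.0620 (chromosome 8).

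**Figure D3:**
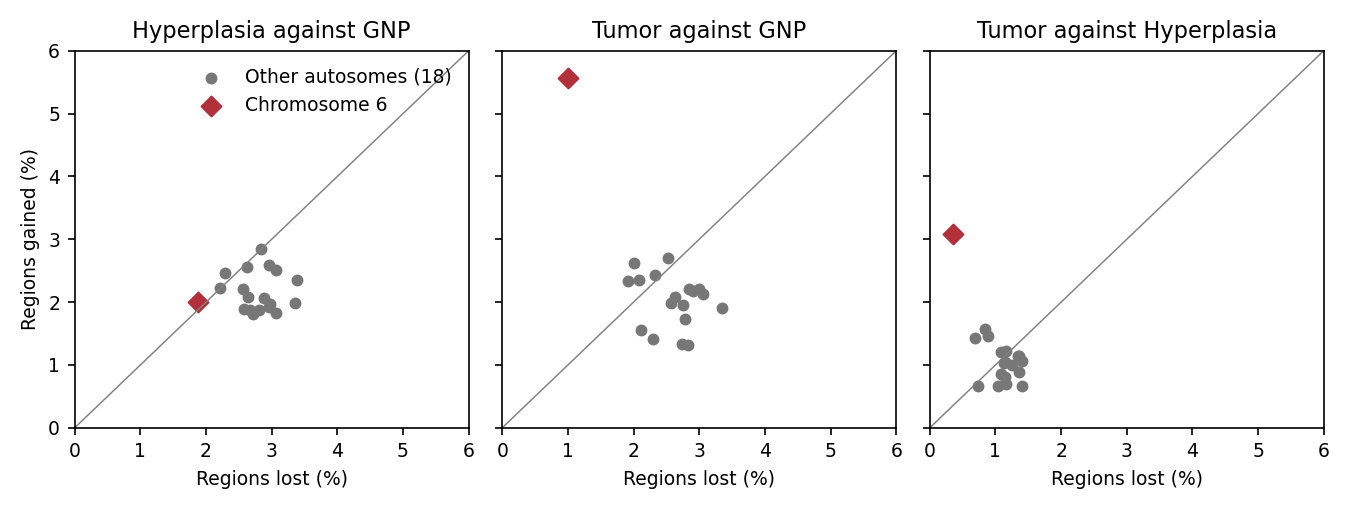
Percent of regions gained against percent lost for each of the 19 autosomes, 1 panel per pair of stages; the line marks equal shares. Chromosome 6 (diamond) lies at 5.57% gained and 1.00% lost between GNPs and tumors and at 3.08% and 0.360% between hyperplasia and tumors, apart from the other 18, and at 2.0% and 1.88% between GNPs and hyperplasia.

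Of the 139 regions gained between GNPs and tumors, 32 were already hit in 5 or 6 hyperplasia libraries, 68 in 2 to 4 and 39 in 0 or 1. The first 32 were also called gained in hyperplasia. A region with no gene within 100 kb (chr6:43859332-43859872) was hit in 0 GNP, 6 hyperplasia and 6 tumor libraries, with median ranks of 5142.5 in hyperplasia and 3026.5 in tumors. The same numbers of libraries hit a region 19007 bp from Tril, a Toll-like receptor accessory protein of brain (chr6:53839656-53840009), a region inside Hk2, hexokinase 2 (chr6:82736836-82737416), and a region 14922 bp from Tspan11 (chr6:127872261-127872914). The last had a median rank of 16106.5 in hyperplasia and 1699.5 in tumors. Inside Ncapd2, a condensin subunit (chr6:125182283-125182613), a region was hit in 0, 4 and 6 libraries. Between GNPs and hyperplasia, regions near the natural killer receptor gene Klrb1a (chr6:128606118-128606659) and 63634 bp from Slc6a6 (chr6:91620237-91620592) also went from 0 to 6 libraries.

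Fewer regions were lost than gained between GNPs and tumors (25 and 139), whereas 47 were lost and 50 gained between GNPs and hyperplasia. A region inside Snd1, an RNA-binding nuclease domain protein (chr6:28867959-28868215), was hit in 6 GNP libraries at ranks 2989 to 9350 and in 0 of the others. The same held for a region 32759 bp from the bHLH gene Atoh8 (chr6:72268378-72268701, GNP ranks 7406 to 18627) and for the start of Skap2 (chr6:52012359-52012970, 11640 to 22007). These were the 3 regions of chromosome 6 hit in all GNP and no tumor library (0.120%, beside 0.377% of regions on other autosomes). The reverse was shown by 30 (1.20%, beside 0.362%). Inside the contactin gene Cntn6 (chr6:104688031-104689142) the numbers were 6, 2 and 1. Regions inside Suclg2, a succinyl-CoA ligase subunit (chr6:95587072-95587626), and Copg1, a coatomer subunit (chr6:87893832-87894348), were hit in 6, 0 and 3 libraries, so that they were missing from the hyperplasia lists and in part present in tumors.

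Between hyperplasia and tumors, 39 of the 77 gained regions were also gained against GNPs. Regions inside Igf2bp3, an mRNA-binding protein of fetal tissue (chr6:49096313-49096973), and inside Ctnna2, the neuronal alpha-catenin (chr6:77848775-77849395), were hit in 6 tumor libraries and in 0 of the others. Inside Erc1, a presynaptic scaffold gene (chr6:119572304-119572686), the numbers were 4, 0 and 6, and inside Fbln2, an extracellular matrix gene (chr6:91213437-91213896), 2, 0 and 6. Of the 9 lost regions, 1 lay 99146 bp from Eva1a (chr6:82191974-82192517; 0, 6 and 1 libraries) and 1 inside the neurexophilin gene Nxph1 (chr6:9042277-9042701; 5, 5 and 1). Over all members, 68 regions were hit by tumor libraries alone (2.72%, beside 1.28% of all regions), 30 by GNP libraries alone (1.20%, beside 2.12%) and 15 by hyperplasia libraries alone (0.601%, beside 1.04%). Without the NFIA library of the second hyperplasia preparation these numbers were 91 (3.64%, beside 1.63%), 38 (1.52%, beside 2.46%) and 15 (0.601%, beside 1.04%).

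Gained regions were found in all 3 location classes. Between GNPs and tumors, 76 of 1114 chromosome 6 regions inside genes were gained (6.82%, beside 2.60% of such regions on other autosomes) and 50 of 876 between genes (5.71%, beside 2.44%). Near gene ends 13 of 507 were gained (2.56%, beside 0.523%). Location was not used to choose the chromosome. The share of top summits near a gene end was lower on chromosome 6 than on the other autosomes, with differences of −1.08 percentage points in GNPs, −2.04 in hyperplasia and −2.93 in tumors. The change of this gap from GNPs to tumors was −1.86 points (exact two-sided permutation test over preparations, p = 0.1, the smallest that 3 against 3 allow; adjusted over 3 pairs 0.3), and the other pairs gave p = 0.5 and p = 0.4. None of these passed. Without the NFIA library of the second hyperplasia preparation the hyperplasia difference was −1.37 points, nearer to that of GNPs, and its pairs gave exact permutation p = 0.5 against GNPs and p = 0.1 against tumors.

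The regions hit in every library can be compared by score, as no library lacks a summit in them. They were picked by presence in all lists, and their scores are those by which the top summits were taken. This is therefore no independent view of the difference. Each of the 6124 common regions was given the percentile of its score among them (100 the highest) and averaged over the 2 libraries of a preparation. The median percentile of the 347 chromosome 6 regions was 44.3, 45.3 and 46.1 in the 3 GNP preparations, 42.7, 44.4 and 46.4 in hyperplasia and 57.3, 65.5 and 62.2 in tumors. The other autosomes stayed between 47.3 and 49.5 in all 9. Chromosome 6 regions were thus below the others in GNPs and hyperplasia and above them in tumors. The median change from GNPs to tumors was +10.7 points (−1.18 elsewhere), and 281 of the 347 were above 0. In limma, 45 were called higher and 1 lower, beside 4.08% and 2.91% of all common regions. The count of higher calls was 17 without GNP preparation 2 and 23 without tumor preparation 2. From hyperplasia to tumors, 22 were called higher and 0 lower (beside 1.13% and 0.555%), with a median of +10.97 points. With the NFIA library of the second hyperplasia preparation left out, 23 were higher and 0 lower. That count was 14 without GNP preparation 2, 5 and 6 without hyperplasia preparation 2 or 3, and 4, 4 and 11 without tumor preparation 1, 2 or 3. As before, these contrasts are description.

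**Figure D4:**
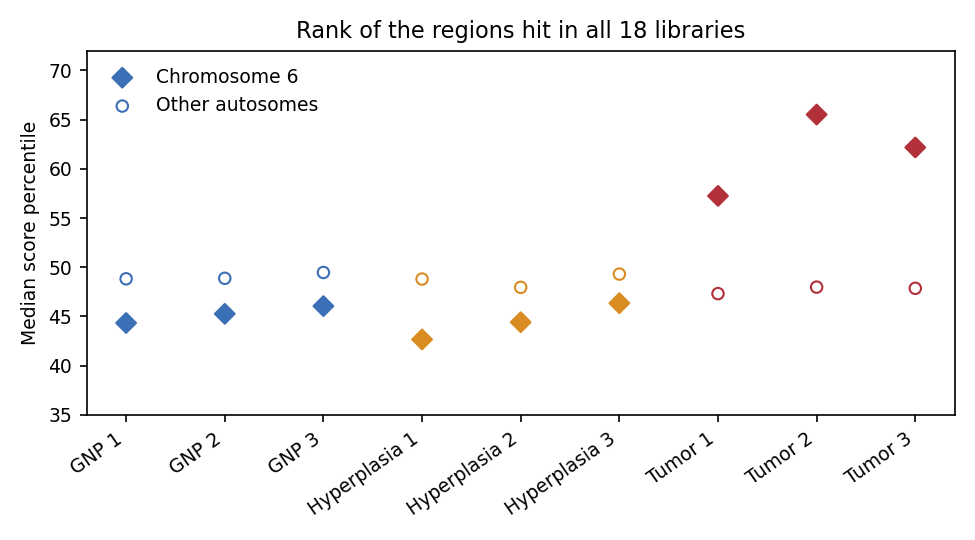
Median score percentile, among the 6124 regions hit in all 18 libraries, of the 347 regions on chromosome 6 (diamonds) and of those on the other autosomes (circles), per preparation; the axis does not start at 0. Chromosome 6 lies at 42.7 to 46.4 in GNPs and hyperplasia and at 57.3 to 65.5 in tumors, and the others between 47.3 and 49.5.

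Between GNPs and hyperplasia the median change of chromosome 6 regions was +0.20 points (+0.64 elsewhere). Here 5 chromosome 6 regions rose and 8 fell by limma, beside 1.85% and 3.10% of all common regions. These counts depend on the model: 13 rose and 14 fell with title date as a term, 14 and 13 with the preparation number as a block, and 7 and 8 without the NFIA library of the second hyperplasia preparation. A region inside Creb5, a CREB family transcription factor (chr6:53573057-53573487), rose from 66.0, 73.6 and 64.6 in GNPs to 97.7, 95.6 and 96.2 in hyperplasia, and stood at 96.3, 98.2 and 97.7 in tumors. Its rise of 28.4 points (SE 3.96) had a limma adjusted p of 0.000303, and the call held under all 15 alternatives run. A region 13659 bp from Shq1, a factor of small nucleolar RNA assembly (chr6:100557925-100558379), rose by 49.2 points (SE 9.43, limma adjusted p 0.00374), from 37.2, 65.1 and 13.5 to 88.6, 91.9 and 82.9. The GNP preparations of this region spread widely and still lay below all of hyperplasia; the call was lost with NFIA libraries only, where each preparation is 1 library. A region inside Bcl2l13 (chr6:120857942-120858626) fell by 44.3 points (SE 11.6, limma adjusted p 0.0278), from 71.6 ± 13.6 to 27.3 ± 13.3 (SD, n = 3), and stood at 70.9 ± 8.67 in tumors. Regions inside Suclg2 (chr6:95621798-95622279, −40.8 points, limma adjusted p 0.0376) and inside Txnrd3, a thioredoxin reductase (chr6:89672469-89673562, −39.6 points, adjusted p 0.0490), also fell, and a region with no gene within 100 kb (chr6:31092697-31093226) rose by 34.6 points (adjusted p 0.0437). These last 4 calls were lost in 6 to 10 of the 15 alternatives, most of which leave out 1 preparation. The counts were 2 to 7 higher and 2 to 8 lower when 1 preparation was left out.

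Among the common regions that differed most in tumors, a region lay 3290 bp from Atoh1 (chr6:64734205-64734865). Its percentile was 31.9, 11.2 and 15 in GNPs, 21.6, 18 and 14.3 in hyperplasia and 78.5, 75.6 and 74.9 in tumors. Tumor preparations lay close to each other and above both other stages. A region inside Tet3, a methylcytosine dioxygenase (chr6:83412519-83413163), stood at 47.4, 18.5 and 32.6, then 42.7, 50.1 and 39.4, then 93.8, 92.4 and 92.3. Inside the neuronal adhesion gene Cntnap2 (chr6:45584403-45584985) values were 5.78, 19.3 and 17.2, then 28.2, 45.1 and 69.3, then 54.0, 83.0 and 93.0, with hyperplasia and tumors overlapping. A region 44366 bp from Gm38821 (chr6:51178419-51178763) averaged 22.3 ± 4.75, 51.4 ± 17.0 and 87.9 ± 7.46 (SD, n = 3). Inside Slc6a6 (chr6:91729212-91730234) the averages were 37.7 ± 9.69, 31.4 ± 5.23 and 82.8 ± 3.06. The one region called lower in tumors than in GNPs lay 8477 bp from Ghrhr, the growth hormone releasing hormone receptor gene (chr6:55396835-55397179), at 93.0 ± 1.51, 86.6 ± 5.14 and 73.0 ± 12.9. Its call was lost under 8 of the 14 alternatives run. The calls of tumors against GNPs at Gm38821, Cntnap2 and Tet3 were lost under 1, 1 and 2 of 14. Those of tumors against hyperplasia at Atoh1 and Slc6a6 were lost under 2 and 6 of 14.

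Chromosome 6 held more of the highest scores in tumors. Among ranks 1 to 5000, with ties at random, its share was 5.07% ± 0.351 in GNPs, 5.09% ± 0.125 in hyperplasia and 8.20% ± 0.361 in tumors (SD, n = 3). Among ranks 25001 to 30000 the shares were 5.62% ± 0.282, 5.60% ± 0.30 and 7.02% ± 0.299. Tumor preparations lay above the others in all 6 classes of rank, and the gap was widest in the first.

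**Figure D5:**
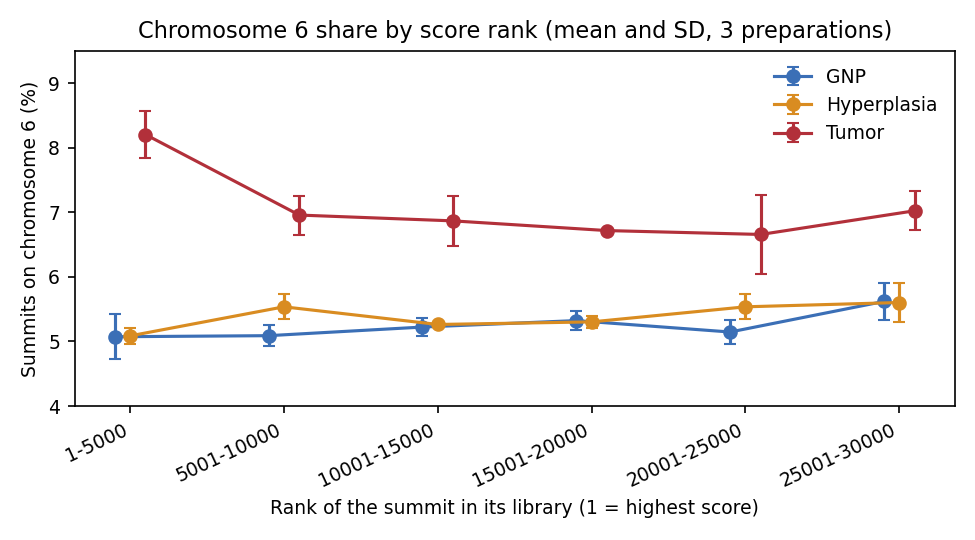
Percent of summits on chromosome 6 in 6 classes of score rank (ties at random), mean and SD of 3 preparations per stage; the axis does not start at 0. Tumors run from 8.20% in the first class to 7.02% in the last, and GNPs and hyperplasia stay between 5.07% and 5.62%.

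NFIA and NFIB libraries were also compared, with the reserve that title and deposited name disagree on the target of 6 libraries. With ties at random the tumor share was 7.03% ± 0.259 for NFIA and 7.11% ± 0.278 for NFIB (SD, n = 3), and the GNP shares were 5.31% ± 0.0271 and 5.18% ± 0.131. In a limma fit with preparation as a block, 0 of the 137 windows differed between the targets, and 0% of all windows did. At an unadjusted p under 0.05 there were 10 windows on chromosome 6 and 135 of 2200 in all, and the smallest adjusted p was 0.801. Regions hit by libraries of 1 target only numbered 49 for NFIA (1.96%, beside 1.83% of all regions) and 30 for NFIB (1.20%, beside 1.40%). Fitted with 1 target alone, where each preparation is 1 library, limma called 0 chromosome 6 windows higher in tumors than in GNPs with NFIA and 16 with NFIB, and 0 and 6 common regions by rank. By the rule's order of ties, the tumor to GNP ratio of the share was 1.293 with NFIA and 1.381 with NFIB. These ratios are not those of the shares above, which have ties at random. The NFIA library of the first GNP preparation had a share of 5.74% by the rule and 5.28% with ties at random. None of these single-target differences was tested as a difference. The shares that these fits called over all windows and common regions are not given, so nothing is read from the counts. A call that is not made does not show that the proteins bind alike.

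By nearest gene within 100 kb, 702 of the 1126 protein-coding genes of chromosome 6 had a region, and 242 regions (9.69%) had no gene so near. The gene with most regions was Snd1 with 28, followed by Cacna1c, an L-type calcium channel subunit, with 24, Frmd4b with 23, and Cntnap2, the transcription factor gene Foxp1, the semaphorin receptor gene Plxna4 and Tmem178b with 21 each. Creb5, Iqsec1 and Tspan9 had 19 each. Of the 24 regions of Cacna1c, a GNP library hit 11.2 ± 0.764, a hyperplasia library 9.17 ± 1.15 and a tumor library 14.5 ± 0.5 (SD, n = 3 preparations). For Foxp1 these numbers were 9 ± 0.5, 12.3 ± 1.61 and 14.3 ± 2.02, so that hyperplasia was nearer to tumors, and for Creb5 they were 8 ± 0.866, 7.33 ± 1.15 and 11.7 ± 0.577. For Snd1 they were 15.3 ± 1.04, 15.7 ± 3.82 and 16.8 ± 1.26, and the stages overlapped. Without the NFIA library of the second hyperplasia preparation, the hyperplasia numbers were 10 ± 1.32 for Cacna1c, 13.2 ± 0.289 for Foxp1, 7.67 ± 1.53 for Creb5 and 16.2 ± 3.01 for Snd1. Of the 37 chromosome 6 genes with at least 10 regions, 15 had more regions hit in every tumor preparation than in every GNP preparation and 1 fewer, beside 10.7% and 12.8% of the 562 such genes on all autosomes. For hyperplasia against GNPs, 1 was higher and 6 lower in every preparation, beside 3.20% and 15.7%. For tumors against hyperplasia, 16 were higher and 0 lower, beside 9.25% and 1.42%. Without the NFIA library of the second hyperplasia preparation, 3 were higher and 5 lower in hyperplasia than in GNPs (beside 8.36% and 13.0%), and 14 were higher and 0 lower in tumors than in hyperplasia (beside 7.47% and 4.09%).

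The gene lists used here were chosen with results known and are described by counts, to be read beside the 5.57% gained and 1.00% lost between GNPs and tumors over the chromosome 6 regions and the 2.28% and 2.54% over all regions. The 20 progenitor and growth genes of chromosome 6 had 97 regions, of which 6 were gained and 0 lost between GNPs and tumors. They include Foxp1 (21 regions), Sox5 (14) and Ret (8). Atoh1 had 4 regions, of which the one at its start was hit in 3, 5 and 6 libraries of GNPs, hyperplasia and tumors. The others were hit in 2, 3 and 6, in all 18, and in 4, 1 and 3. Smo had 2, and the one inside the gene (chr6:29748279-29748661) was hit in all 18 at median ranks of 636, 2810 and 1081.5. Ccnd2, cyclin D2, had 6 regions: the one 304 bp from the gene (chr6:127152244-127152740) was hit in 0, 1 and 5 libraries, and one 29367 bp away (chr6:127181390-127181720) in all 18 at median ranks of 546.5, 221.5 and 127.5. The others, inside the gene, were hit in 0, 4 and 1, in 4, 0 and 2, in 1, 0 and 2, and in 2, 1 and 1. Both regions of Cdkn1b, the cell cycle inhibitor p27, were hit in all 18.

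Of 13 neuronal adhesion genes on the chromosome, 12 had 94 regions, with 8 gained and 2 lost between GNPs and tumors; Cntnap2 (21), Ctnna2 (16) and Magi1 (16) had most. Of 16 genes of glutamate, GABA and ion channel signalling, 15 had 96 regions, 7 gained and 0 lost, led by Cacna1c (24), Grm7 (12) and Grin2b (12), the last 2 being glutamate receptors. Of 6 axon guidance genes, 5 had 54 regions, 4 gained and 0 lost. The 4 Wnt ligand genes had 11 regions, 0 gained and 0 lost. The median change in libraries hit from GNPs to tumors was 0 or 1 in each of these lists, and 0 over the regions of each autosome. Their means ran from 0.545 to 0.979, beside 0.722 over all chromosome 6 regions. Of the lists for other cells, 6 of 7 glial genes had 29 regions (1 gained), 6 of 10 vessel and blood genes 10 regions (2 gained), and 3 of 10 genes of non-neural tissues 9 regions (0 gained). The medians of these lists were 1, 1.5 and 0 and their means 0.897, 1.9 and 0.778, so that the vessel and blood list had the highest mean of all the lists, over 10 regions. The glial list is not separate from the others. Its Sox5 (14 regions) was also counted among progenitor and growth genes, and Cav1 (3) among vessel and blood genes. Slc6a11 (5 regions), which had the 1 gained glial region, was also in the glutamate and GABA list. Of the 9 non-neural regions, 7 were assigned to Lep. The 2 gained regions of the vessel list lay inside Vwf, von Willebrand factor, and were hit in 1, 6 and 6 libraries (chr6:125597808-125598201) and in 1, 6 and 5 (chr6:125657019-125657460). Whether other cells had a part in this was not tested.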

How the data were processed

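CUT&Tag for NFIA and NFIB was done on 18 libraries, per the labels' protocols. The deposited lists give, for each library called separately by the authors, 1-base summits with a −log10 p-value or q-value as score (which of these the labels do not say). Bowtie2, MACS2 and mm10 are named in the submitters' processing notes, without versions, and no control library is named there. Members and lists were chosen with earlier results of these data known. Stage and target came from the titles.

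Equal lists of 30000 top summits were used because list lengths differ. Nearest genes came from 20661 protein-coding gene spans of RefSeq GRCm38.p6, within 100 kb of the middle of a region. Coordinates are 1-based, mm10. Windows of 1 Mb with a mean of at least 2 top summits over 9 preparations (2 libraries summed) were fitted in R 4.3.3 by limma 3.58.1, using stage as the only term, a trended empirical Bayes variance and Benjamini-Hochberg adjustment at 0.05. The same model was fitted to score percentiles of common regions. A log2 difference with a pseudocount of 0.5 understates the change of sparse windows. On simulated tables of 2200 windows for tumor against GNP, the window test recovered 77% of 2-fold and 99% of 4-fold changes and called 0.45% of unchanged windows. The simulated counts were Poisson draws with no added spread between preparations. Changes as small as the median log2 difference of 0.44 on chromosome 6 were not simulated, so recovery of such changes is unknown. Named regions were those hit in all libraries with the best worst rank (5), the 5 gained and 5 lost per pair of stages with the largest difference in libraries hit, the 5 called windows and the 3 called rises and falls of rank with the largest change, the 10 genes with most regions, the 2 to 4 list genes with most regions, and the 3 densest windows and longest gaps. A window that this rule names is not reported here. Promoters of genes named by this rule were eligible for printing. Genes named besides were chosen after their values were seen (Cttnbp2, Atoh1, Smo, Ccnd2, Cdkn1b and Vwf as members of lists or as examples). Other steps used matplotlib 3.10.9, SciPy 1.17.1, pandas 2.3.3 and numpy 2.4.6 under Python 3.11.15.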

Additional observations from a re-analysis of the deposited data

Results flagged for a closer look

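In hyperplasia, the NFIA library of the second preparation lay apart from the other 5 libraries of its stage by Dixon's criterion in both measures tested. The share of its top summits on chromosome 6, with ties ordered by chromosome, was 7.01%, and the other 5 had 5.29% to 5.41%. It hit 40.3% of the chromosome 6 regions, and the other 5 hit 53.3% to 54.6%. Chance alone marks about 1 in 20 groups. Ties at the last score kept made up 20.4% of its list, and with ties at random its chromosome 6 share was 5.57%.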

How the results depend on the processing

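Depth is unknown and summits below a score of 2 are not in the lists, so a region with no top summit may still be bound. With 3 preparations a stage, exact tests could not go below p = 0.1. By the rule's order of ties, the tumor to GNP ratio of the chromosome 6 share was 1.435 with 15000 top summits. It was 1.293 with NFIA and 1.381 with NFIB libraries only. By the same order of ties, the tumor to hyperplasia ratio was 1.389, 1.203 and 1.327 under these. The NFIA value includes the NFIA library of the second hyperplasia preparation, at 7.01% by the rule and 5.57% with ties at random. With ties at random, the tumor and hyperplasia shares were 7.03% and 5.39% for NFIA and 7.11% and 5.38% for NFIB. Over both targets the ratio was 1.325 without that library and 1.319 over all summits. It was 1.359 with ties in reverse order, 1.312 with ties at random and 1.321 with tied summits left out. The last 2 were chosen after seeing the data. Leaving out 1 preparation gave ratios of 1.324 to 1.354 for tumors to GNPs, 1.231 to 1.331 for tumors to hyperplasia and 1.003 to 1.085 for hyperplasia to GNPs. None of these ratios fell below 1.

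With 15000 top summits most regions called were others: 24 of the 139 gained between GNPs and tumors were called again. Under that setting, 30 regions were gained between GNPs and hyperplasia (2.185%, beside 2.29% of regions on other autosomes). Gained between GNPs and tumors were 92 (6.70%, beside 2.31%), and 3 were lost between hyperplasia and tumors (0.2185%, beside 1.35%). The criterion of all 6 libraries against none is stricter. It gave 12 gained and 9 lost between GNPs and hyperplasia (0.481% and 0.360%, beside 0.365% and 0.468%). Between GNPs and tumors it gave 30 and 3 (1.20% and 0.120%, beside 0.362% and 0.377%). Between hyperplasia and tumors it gave 8 and 0 (0.320% and 0%, beside 0.0836% and 0.0734%). With NFIB libraries only, 16 were lost between GNPs and tumors (0.865%, beside 3.20%). Without the NFIA library of the second hyperplasia preparation, 81 were gained between GNPs and hyperplasia (3.31%, beside 3.71%). Between hyperplasia and tumors 17 were lost (0.694%, beside 2.35%). Leaving out 1 preparation gave 47 to 115 gained and 47 to 106 lost between GNPs and hyperplasia, 136 to 267 and 25 to 54 between GNPs and tumors, and 76 to 190 and 8 to 35 between hyperplasia and tumors.

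Windows called higher in tumors than in GNPs were 0 with NFIA libraries only and 16 with NFIB libraries only. They were 1 where only top summits of score at least 5 were kept, and 1 to 49 when 1 preparation was left out. For tumors against hyperplasia they were 0, 1 and 0 under these, 2 with no filter on windows, 18 with tied summits left out, 19 with ties at random, 20 with ties in reverse order, 18 without the NFIA library of the second hyperplasia preparation and 1 to 6 when 1 preparation was left out. With score at least 5 the median log2 difference between hyperplasia and tumors was 0.08. That setting shortens each list whose last score kept lay below 5, and counts were not scaled for list length. Shortened were both libraries of tumor preparation 1 (last scores 3.46 and 3.79). So were the NFIA libraries of GNP preparations 1 and 2 (4.05 and 4.42) and of hyperplasia preparation 1 (3.90). For hyperplasia against GNPs, windows of 500 kb gave 3 higher and 1 lower, and NFIB libraries only gave 1 higher. The cause was not tested, other than that settings with 1 target or 2 preparations use fewer samples. Shares called over all windows or common regions are not given for these settings. The counts therefore show only how the chromosome 6 calls vary.

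Common regions called by rank were, for hyperplasia against GNPs, 1 higher and 0 lower with NFIA libraries only, 2 and 1 with NFIB only, 8 higher with normal scores, and 2 to 7 higher and 2 to 8 lower with 1 preparation left out. For tumors against GNPs they were 0 and 0 with NFIA only, 6 and 0 with NFIB only, 0 lower with normal scores, and 17 to 44 higher and 0 to 1 lower with 1 preparation left out. For tumors against hyperplasia they were 0 higher with either target only, 39 with normal scores, and 4 to 21 higher with 1 preparation left out. The change in the gap of the share near gene ends was −1.943 to −1.748 for tumors against GNPs with 1 preparation left out.

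Preparation numbers recur across stages. GNP and hyperplasia preparations 1 and 2 share 1 title date and preparations 3 another, so a number alone marks no day, and same-numbered preparations did not deviate together (correlations from −0.153 to 0.121). With the number as a replicate block, 35 windows were called higher for tumors against GNPs and 4 for tumors against hyperplasia. By rank, the block gave 14 higher and 13 lower for hyperplasia against GNPs, and 45 higher and 1 lower for tumors against hyperplasia. With title date as a term, chosen after seeing the data, the rank test gave 13 higher and 14 lower for hyperplasia against GNPs. By window that term gave 0 and 0.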
